A study of Mus musculus with 24 samples.

Results

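Bone marrow–derived macrophages (BMDM) that had received IL-4, IL-13 and oligomycin and whose library names end in Oli_ISR were compared with naive BMDM of the same mice. Members were chosen by the end of the library name, Oli_ISR or M0, which gave 4 libraries a group, 8 of the 24 RNA-seq libraries of the series. The number that opens each name, 1, 2, 4 or 5, is that of the mouse. The study cultured mouse bone marrow in the growth factor M-CSF to obtain macrophages and sequenced their mRNA to ask how stress on mitochondria and other organelles alters the response to IL-4 and IL-13. Another 4 libraries, from macrophages given IL-4/IL-13 and no inhibitor, were used to tell which part of the cytokine response remained.

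All cells came from female wild-type C57BL/6J mice aged 9 weeks and were differentiated for 6 days. For M-CSF the methods give 50 ng/ml, whereas the labels give 50 µg/ml. Naive macrophages were kept without cytokine for 24 hours. IL-4/IL-13–treated macrophages received 20 ng/ml of each cytokine for 24 hours. Oli_ISR macrophages received the same cytokines and 1 µM oligomycin, a blocker of the mitochondrial ATP synthase, after a pretreatment of 1 hour. The labels conflict on ISRIB, a compound that counteracts the integrated stress response (ISR). By their titles, the Oli_ISR libraries come from cells given oligomycin without ISRIB and the libraries named Oligo from cells with 1 µM ISRIB, whereas the library names read the other way around. Neither reading was preferred on the basis of a measurement, so the presence of ISRIB in the Oli_ISR group is not known. Each mouse gave 1 library per group.

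IL-4 and IL-13 act through a shared receptor chain and the transcription factor STAT6, and they turn on genes for lectins and chemokines in macrophages. Oligomycin stops ATP production by mitochondria, and mitochondrial stress can reach the ISR, in which kinases phosphorylate the translation factor eIF2α and the transcription factor ATF4 is made. ATF4 and its partners bind composite C/EBP-ATF elements and induce genes for amino acid synthesis, amino acid import and tRNA charging.

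Between 17768551 and 19883716 reads were counted on genes in the naive libraries (median 19288332) and between 18514993 and 26725278 in the Oli_ISR libraries (median 19108109). Levels are given as CPM, counts scaled to the TMM-normalized library size as counts per 1000000. Strings of 4 values follow the order of mice 1, 2, 4 and 5. At most 3 counts in a library was taken as the floor, and intervals and floors cover counting error only. Genes were tested with edgeR's quasi-likelihood test over all 24 libraries. A gene is named higher or lower at a Benjamini-Hochberg adjusted *P* under 0.05, and called when the change was also at least 2.5-fold. The term uncertain marks a gene that shares over 20% of its 31-base words with other genes, or whose exons overlap another gene by over 20%.

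Some libraries stood apart before any comparison. The naive library of mouse 2 differed from the other naive libraries with a chi-square per gene of 27.6 to 36.3, against 6.08 to 8.03 among the other 3. In that library 81 genes with under 1000 exon bases had a median 0.55 log2 units above the other naive libraries. The Oli_ISR libraries of mice 1 and 4, and those of mice 2 and 5, were close to each other with 3.21 to 6.01, while the remaining pairs reached 12.9 to 18.9. Main counts are therefore also given without the naive library of mouse 2, an alternative chosen after seeing the data.

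Markers of macrophages were abundant in both groups. Over the 14 macrophage markers the summed level was 34292, 40943, 40008 and 35166 CPM in naive and 17256, 16437, 18137 and 16770 CPM in Oli_ISR macrophages, with *Lyz2*, which encodes lysozyme (uncertain), as the most abundant. Of these markers 3 were higher, 11 were lower and 4 of the latter were called, with a median log2 fold change of -0.78. With the cytokines alone 11 were lower as well, 5 of them called, at a median of -0.95 and sums of 14299, 14757, 16852 and 14546 CPM. *Csf1r*, the M-CSF receptor (uncertain), was at 4329, 4209, 5284 and 4508 CPM in naive and 3775, 3788, 3874 and 3617 CPM in Oli_ISR macrophages. *Spi1*, which encodes the lineage factor PU.1, was at 491, 606, 499 and 489 CPM against 435, 446, 416 and 475 CPM. Both receptor and lineage factor were thus well expressed in every library, although the Oli_ISR values lay below the naive values. *Adgre1*, the gene of the macrophage marker F4/80, fell from 3487 ± 281 to 1450 ± 60.8 CPM (SD, n = 4 mice). *Cd14*, a co-receptor for lipopolysaccharide, fell from 564 ± 60.9 to 44.1 ± 4.65 CPM. By contrast *Cd68*, a lysosomal glycoprotein, was higher, at 1094, 1353, 1213 and 1128 CPM in naive and 1856, 1860, 1838 and 1900 CPM in Oli_ISR macrophages.

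Markers of other cell types were low. Neutrophil and progenitor markers (9 of 12 tested, 8 lower, median log2 fold change -1.40) summed to 69.6, 91.3, 73.5 and 52.9 CPM in naive and 25.7, 24.3, 31.3 and 30.4 CPM in Oli_ISR macrophages, led by *S100a9*, and *Ly6g* was at the floor. Dendritic cell markers (6 of 8 tested, 1 higher, 5 lower, median -1.68) summed to 17.2, 19.6, 13.8 and 18.9 CPM against 36.6, 39.4, 37.7 and 40.8 CPM. The most abundant of them was *Batf3* (uncertain), which is also counted among the type 2 genes below, and *Xcr1* (uncertain) was at the floor. Of 9 lymphocyte markers only *Cd79b* was tested, with a log2 fold change of -2.62, and the list summed to 2.34, 2.84, 1.45 and 2.34 CPM against 0.542, 0.496, 0.17 and 0.426 CPM, with *Cd3e*, *Cd3d*, *Cd3g*, *Ncr1* and *Nkg7* at the floor. Mast cell, basophil and eosinophil markers (3 of 8 tested, 1 higher, 1 lower, median 0.07) summed to 3.66, 2.96, 4.5 and 3.58 CPM against 16.5, 13.9, 15 and 14.8 CPM, nearly all from *Siglecf*, a sialic acid–binding lectin, with *Fcer1a*, *Ms4a2* and *Epx* at the floor. Stromal and erythroid markers (7 of 12 tested, 5 lower, median -1.21) summed to 140, 86.7, 92 and 20.5 CPM against 54.6, 29.3, 31.7 and 9.83 CPM. The most abundant was the collagen gene *Col1a2*, and the globin genes *Hbb-bs*, *Hbb-bt*, *Hba-a1* and *Hba-a2*, all uncertain, were at the floor. These 4 share 51.9% to 83.3% of their 31-base words with other genes, so their low counts say little. The part of these cell types in the results was not tested.

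In Oli_ISR macrophages, most tested type 2 genes were above naive, most were below their level with the cytokines alone, *Trib3*, *Asns* and *Phgdh* (uncertain) were above both reference states, and most genes of a cell cycle list and genes such as *Cx3cr1* were below naive levels. Of 13679 genes tested, 4455 were higher (32.6%) and 4271 lower (31.2%) than in naive macrophages, and 490 were called higher (3.58%) and 1008 called lower (7.37%). The median log2 fold change over all genes was -0.00234. Fewer cells of a type and less RNA per cell cannot be told apart in these bulk samples. Without the naive library of mouse 2, 519 genes were called higher and 1035 called lower.

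The cytokine response that remained was defined by the genes that IL-4 and IL-13 alone had changed. These were 737 induced genes (5.39%) and 832 repressed genes (6.08%) in IL-4/IL-13–treated against naive macrophages, a comparison that shares the naive libraries. Of the 832 repressed genes, 487 (58.5%) were also called below naive in Oli_ISR macrophages, 340 (40.9%) were not called and 5 were called above naive. Of the 737 induced genes, 280 (38%) were also called above naive in Oli_ISR macrophages, 409 (55.5%) were not called and 48 (6.51%) were called below naive. Over all genes tested, 3.58% were called above naive and 7.37% below it, the latter near the share among induced genes. The 280 genes had a median log2 fold change of 2.31 with Oli_ISR and of 2.81 with the cytokines alone. Within these 280 genes, 215 were not called against IL-4/IL-13–treated macrophages, 60 were called below them and 5 above them. The 60 weakened genes had a median of 2.56, against 4.80 with the cytokines alone. At the adjusted *P* alone, 573 of the 737 induced genes (77.7%) were lower than with the cytokines alone and 48 were higher. Their median log2 fold change against IL-4/IL-13–treated macrophages was -1.25, beside 0.00261 over all genes tested. The 737 genes were chosen as high in these same IL-4/IL-13 libraries, which favors the lower direction. For this comparison, the share of all genes past the adjusted *P* is not given here. Of 770 genes picked as induced from mice 1 and 2 alone, 754 were tested in mice 4 and 5, where 265 (35.1% of those tested) were called above naive. Of 735 picked from mice 4 and 5, 727 were tested in mice 1 and 2, and 264 (36.3%) were called above naive there. Without the naive library of mouse 2, 295 genes in place of 280 were induced and called above naive.

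The remaining response included known products of type 2 activation. Among 39 tested type 2 effectors and markers, 35 were higher, 2 lower and 2 not past the threshold. Of them 33 were called higher, with a median log2 fold change of 2.45, or 2.41 with 4 genes at the bound that the floor sets. Their summed level went from 1755, 1826, 2022 and 1894 CPM in naive to 12460, 11216, 12954 and 10191 CPM in Oli_ISR macrophages, below the 22949, 23825, 24663 and 21945 CPM of IL-4/IL-13–treated macrophages. Against the latter, 24 of the 39 genes were lower and 9 higher. The median of this log2 fold change was -0.67, beside 0.00261 over all genes tested. With the cytokines alone 32 of the 39 genes were called higher in these same IL-4/IL-13 libraries, which favors the lower direction here too. The share of all genes past the adjusted *P* is not given for this comparison.

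*Chil3* (ENSMUSG00000040809, chromosome 3, 106054870 to 106074880, GRCm39, uncertain), a chitinase-like secreted lectin, was at 9.61, 13.1, 9.76 and 8.1 CPM in naive and 2765, 1860, 2853 and 1453 CPM in Oli_ISR macrophages. All Oli_ISR values were far above the naive values, and those of mice 2 and 5 were the lowest. The log2 fold change was 7.79 (standard error 0.26; edgeR's quasi-likelihood test, adjusted *P* = 3.3e-18). *Retnla* (ENSMUSG00000061100, chromosome 16, 48662895 to 48664824), which encodes the secreted protein RELMα, was at 0, 0.398, 0.0536 and 0 CPM in naive and 348, 224, 388 and 161 CPM in Oli_ISR macrophages. It remained far above naive, but IL-4/IL-13–treated macrophages had 7754 ± 406 CPM, and the log2 fold change against them was -4.79 (standard error 0.30; edgeR's quasi-likelihood test, adjusted *P* = 1.6e-12). *Rnase2a* (ENSMUSG00000047222, chromosome 14, 51492719 to 51493595), a gene of the eosinophil-type ribonucleases, had no count in any naive library and 124, 104, 141 and 88.6 CPM in Oli_ISR macrophages. It was at least 730-fold higher, with the floor of 3 counts taken in each naive library.

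Surface lectins and immune regulators were kept to a different extent. *Mrc1* (ENSMUSG00000026712, chromosome 2, 14234151 to 14336926), the mannose receptor, was at 191, 177, 224 and 192 CPM in naive and 607, 725, 714 and 573 CPM in Oli_ISR macrophages. The groups did not overlap, and the Oli_ISR values spanned the mean of 634 ± 74 CPM with the cytokines alone. *Pdcd1lg2* (ENSMUSG00000016498, chromosome 19, 29388319 to 29448882), the inhibitory ligand PD-L2, rose from 1.22, 0.739, 0.912 and 0.745 CPM to 74.8, 70.3, 65.9 and 63.6 CPM. Its log2 fold change was 6.23 (standard error 0.11; edgeR's quasi-likelihood test, adjusted *P* = 1.5e-23), beside 6.06 with the cytokines alone. *Itgax* (ENSMUSG00000030789, chromosome 7, 127728668 to 127749829), the integrin CD11c, rose from 17.9, 18.4, 22.6 and 19 CPM to 919, 898, 1110 and 783 CPM, a log2 fold change of 5.57 (standard error 0.15). The lectin gene *Mgl2* (uncertain) kept less, with 3.34 ± 0.446 CPM in naive, 383 ± 7.21 CPM with the cytokines and 65.7 ± 12.3 CPM in Oli_ISR macrophages. The fusion gene *Ocstamp* was at 0.491 ± 0.141, 115 ± 10.7 and 14.5 ± 2.87 CPM in the same order.

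Transcription factors of the program also differed in what was left. *Egr2* (ENSMUSG00000037868, chromosome 10, 67371305 to 67378018) was at 11.8, 12.8, 14.4 and 15.7 CPM in naive and 237, 234, 235 and 241 CPM in Oli_ISR macrophages, where the mice were almost alike. *Irf4* (ENSMUSG00000021356, chromosome 13, 30933209 to 30950959) rose from 13.1, 13.1, 13.7 and 14.3 CPM to 82.2, 68.2, 80.3 and 65.1 CPM. Its log2 fold change was 2.45 (standard error 0.11; edgeR's quasi-likelihood test, adjusted *P* = 4.3e-16), and 4.51 with the cytokines alone. *Klf4*, another factor of type 2 activation, rose from 19.9 ± 3.45 to 180 ± 15 CPM, a log2 fold change of 3.17 beside 3.24 with the cytokines alone. *Pparg*, the lipid-sensing nuclear receptor PPARγ, rose from 55.6 ± 3.83 to 147 ± 2.76 CPM (log2 fold change 1.40, against 1.38). Of the tested members, *Clec10a*, a galactose-type lectin, had a log2 fold change of -0.47, *Cxcr4*, a chemokine receptor, of -0.17 and *Il1rn*, the IL-1 receptor antagonist, of 0.07.

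The 8 genes of the remaining response with the highest mean level in Oli_ISR macrophages were *Chil3*, *Anpep*, *Cd36*, *Anxa4*, *Niban2*, *Clec7a*, *Clic4* and *Atp6v0a1*. *Anpep* (ENSMUSG00000039062, chromosome 7, 79471551 to 79510807), the aminopeptidase CD13, was at 366, 341, 457 and 393 CPM in naive and 1825, 1915, 1953 and 1799 CPM in Oli_ISR macrophages. Every Oli_ISR value was also above the 1151 ± 118 CPM of IL-4/IL-13–treated macrophages. *Cd36*, a scavenger receptor for lipids, rose from 368, 421, 471 and 469 CPM to 1712, 1687, 1817 and 1507 CPM, and *Clec7a*, the β-glucan receptor dectin-1, from 264 ± 15.3 to 1232 ± 39 CPM. *Atp6v0a1*, a membrane subunit of the vacuolar proton pump, rose from 292 ± 16.7 to 1112 ± 73 CPM, and its relative *Atp6v0d2* from 62.1 ± 7.46 to 1090 ± 75.6 CPM.

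Some induced genes were high only relative to almost no naive counts. *Il31ra*, a cytokine receptor gene, had 1 count in the naive libraries and 585 in the Oli_ISR libraries, a ratio of 561 (95% exact interval 100 to 22199, counting error only). *Kcnd3*, a potassium channel gene, had none in the naive libraries and 10.4, 7.77, 9.9 and 7.2 CPM in Oli_ISR macrophages, at least 56-fold more at the floor. *Scn3a*, a sodium channel gene, had a ratio of 116 (95% exact interval 45 to 428). *Gm8113* (uncertain) rose from 0.266 ± 0.126 to 26.3 ± 4.63 CPM. All 4 genes were induced by the cytokines alone, with log2 fold changes against IL-4/IL-13–treated macrophages of -2.38, -0.17, -2.61 and -2.18.

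A list of the receptor pathway and its feedback genes showed no shared direction. It also holds *Il31ra*, *Ppargc1b* and *Rsad2*, which are not parts of the receptor. Of 17 tested genes 7 were higher, 7 lower and 3 not past the threshold, with a median log2 fold change of -0.01, near that of all genes. *Stat6*, the main transducer, was at 334, 304, 346 and 340 CPM in naive and 313, 337, 314 and 338 CPM in Oli_ISR macrophages, and the groups overlapped. *Il4ra*, the receptor chain shared by both cytokines, was lower, at 160, 172, 183 and 163 CPM against 84, 90.2, 90.2 and 91.3 CPM. This level resembled the 91.9 CPM with the cytokines alone. The feedback inhibitor *Socs1* rose from 3.32, 5.06, 3.65 and 2.63 CPM to 60.3, 67.3, 52.2 and 71.1 CPM, and its relative *Cish* (uncertain) from 1.84 ± 0.382 to 28.1 ± 3.74 CPM. *Jak2*, a kinase, rose by a log2 fold change of 1.42, while *Socs3*, an inhibitor of the IL-6 type receptors, changed by -2.05.

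**Figure D1:**
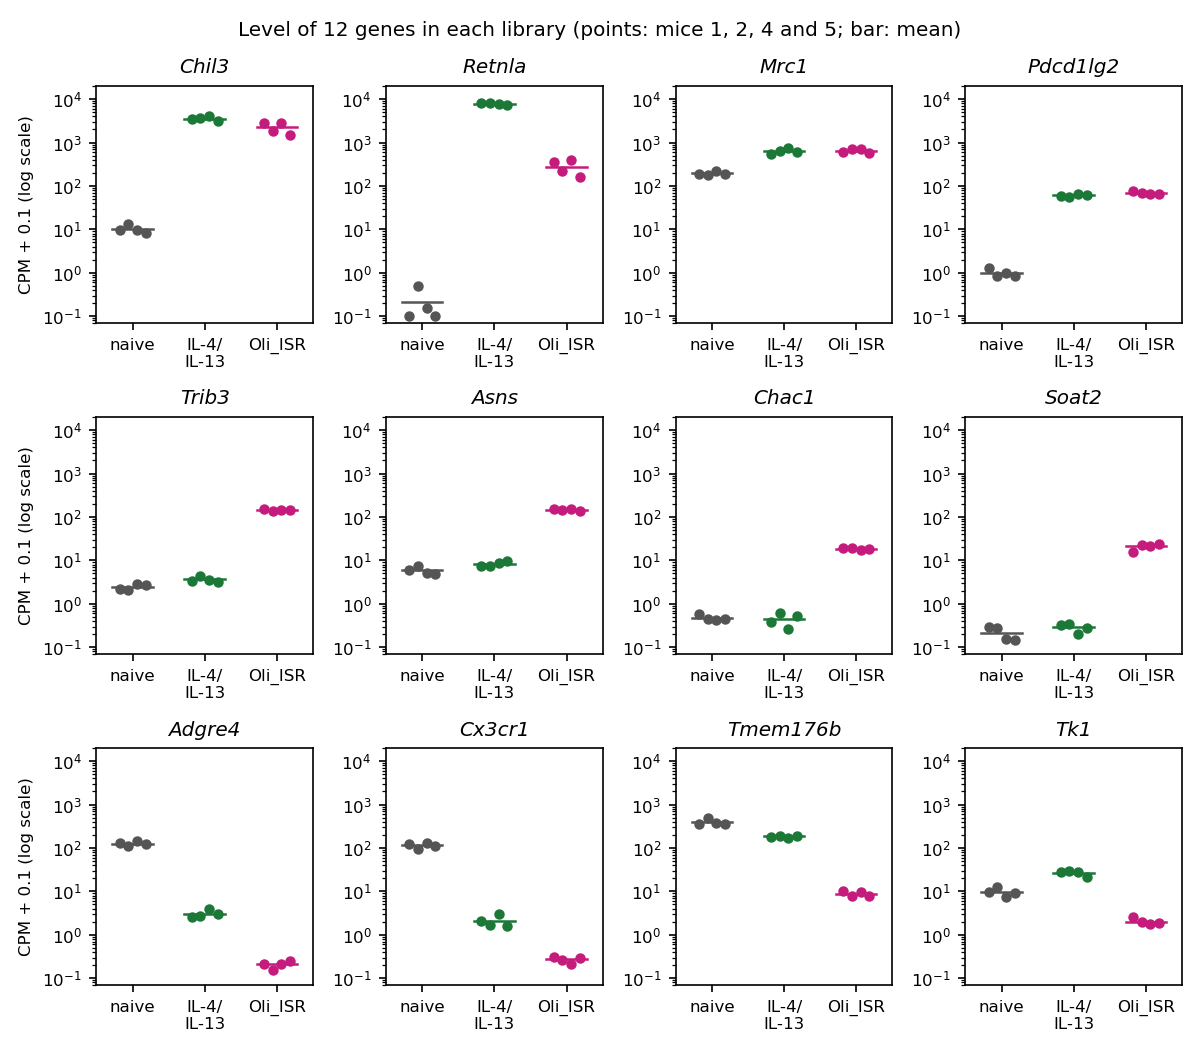
Level of 12 genes in each library of naive, IL-4/IL-13–treated and Oli_ISR macrophages, in CPM with 0.1 added, on a log axis; points are mice 1, 2, 4 and 5 and bars are means. *Chil3*, *Retnla*, *Mrc1* and *Pdcd1lg2* were above naive in Oli_ISR macrophages, *Trib3*, *Asns*, *Chac1* and *Soat2* were above both references, and *Adgre4*, *Cx3cr1*, *Tmem176b* and *Tk1* were below both.

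Genes above both references were taken as the new part of the state, whether or not the cytokines alone had changed them. In Oli_ISR against IL-4/IL-13–treated macrophages 402 genes were called higher (2.94%) and 687 called lower (5.02%). The genes called higher than naive and also called higher than IL-4/IL-13–treated macrophages numbered 112, with a median log2 fold change of 2.34 against naive, and 117 without the naive library of mouse 2. Of these, 102 (91.1%) were not called in either direction with the cytokines alone. That share is near the one over all genes tested, of which 5.39% were induced and 6.08% repressed by the cytokines. A further 5 were already induced by them, namely *Phgdh*, *Cldn11*, *Bex1*, *Igfbp6* and *Rbp4*, and 5 were repressed by them, namely *Gdf15*, *Gbp6* (uncertain), *Gm31019* and the genes ENSMUSG00000111118 and ENSMUSG00000114761, which have no symbol and were not checked for shared sequence. *Igfbp6*, *Rbp4*, *Gbp6*, *Gm31019* and the genes without a symbol are named after their values were seen. Protein-coding genes made up 83% of them, against 87.4% of all genes tested.

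The 8 genes with the largest rise over both references were *Soat2*, *Gbp11*, *Chac1*, *Trib3*, *Cox6a2*, *Asns*, *Phgdh* and *Sh2d6*. *Trib3* (ENSMUSG00000032715, chromosome 2, 152179337 to 152191958), a pseudokinase that restrains ATF4, was at 2.15, 1.99, 2.79 and 2.63 CPM in naive and 150, 140, 148 and 148 CPM in Oli_ISR macrophages. The groups were far apart and the Oli_ISR libraries nearly equal. The log2 fold change was 5.93 (standard error 0.11; edgeR's quasi-likelihood test, adjusted *P* = 2.8e-23), beside 0.58 with the cytokines alone. *Chac1* (ENSMUSG00000027313, chromosome 2, 119180757 to 119184866), a glutathione-degrading enzyme, rose from 0.488, 0.341, 0.322 and 0.348 CPM to 19.2, 18.8, 17.1 and 18.3 CPM. *Asns* (ENSMUSG00000029752, chromosome 6, 7671667 to 7728461), asparagine synthetase, rose from 6, 7.33, 5.09 and 4.72 CPM to 151, 141, 150 and 140 CPM, a log2 fold change of 4.66 (standard error 0.11). *Phgdh* (ENSMUSG00000053398, chromosome 3, 98220484 to 98255047, uncertain), the entry enzyme of serine synthesis, rose from 2.15, 1.54, 1.88 and 1.04 CPM to 64, 50.6, 58.3 and 53.3 CPM.

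*Soat2* (ENSMUSG00000023045, chromosome 15, 102058797 to 102071904), an enzyme that esterifies cholesterol, was at 0.195, 0.171, 0.0536 and 0.0497 CPM in naive and 15.3, 22.8, 21.2 and 24 CPM in Oli_ISR macrophages. It was scarcely detected in IL-4/IL-13–treated macrophages, at 0.191 ± 0.0637 CPM. *Gbp11* (ENSMUSG00000092021, chromosome 5, 105470908 to 105494338, uncertain), a guanylate-binding protein gene, rose from 0.0976, 0.171, 0.215 and 0.0497 CPM to 8.67, 18.1, 11.1 and 18.5 CPM, and was highest in mice 2 and 5. *Cox6a2* (ENSMUSG00000030785, chromosome 7, 127804607 to 127805559), the muscle form of a cytochrome oxidase subunit, rose from 0.342, 1.02, 0.804 and 1.04 CPM to 17.4, 12.3, 16.4 and 13.8 CPM. *Sh2d6*, an adaptor gene, rose from 0.577 ± 0.226 to 6.32 ± 1.85 CPM. *Gdf15*, a circulating stress signal, was at 7.03, 7.39, 5.68 and 7.95 CPM in naive, 2.61 ± 0.53 CPM with the cytokines and 23.5, 26.2, 24.3 and 27.5 CPM in Oli_ISR macrophages. It was thus the reverse of the cytokine effect, with log2 fold changes of -1.44 and 1.85. *Cldn11*, a tight junction gene, had a ratio of 158 to naive (95% exact interval 61.4 to 582), and *Bex1* (uncertain) of 103 (39.8 to 378).

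Transcription factors and regulators of stress rose in part. Of 21 tested members, with the pseudokinase gene *Trib3* among them, 13 were higher, 7 lower and 1 not past the threshold, with a median log2 fold change of 0.56 and sums of 2268, 2355, 2207 and 2326 CPM against 4142, 3916, 3934 and 4059 CPM. With the cytokines alone 10 were higher and 7 lower, at a median of 0.14 and sums of 3282, 3250, 3163 and 3344 CPM. Of all genes tested, 32.6% were higher and 31.2% lower in Oli_ISR than in naive macrophages, the latter near the share of lower members here. For this and the lists that follow, 3.58% of all genes tested were called higher and 7.37% called lower. *Atf4* (ENSMUSG00000042406, chromosome 15, 80139372 to 80141745) was at 121, 123, 103 and 117 CPM in naive and 480, 461, 466 and 505 CPM in Oli_ISR macrophages. The log2 fold change of this central ISR factor was 2.04 (standard error 0.08; edgeR's quasi-likelihood test, adjusted *P* = 1.8e-17). *Atf5* (ENSMUSG00000038539, chromosome 7, 44461680 to 44466082), a factor tied to mitochondrial protein stress, rose from 32.8, 41.8, 33.6 and 36.9 CPM to 381, 322, 382 and 336 CPM. *Ddit3*, the gene of CHOP (uncertain), was at 27.7 ± 4.55 and 123 ± 7.04 CPM. In contrast, *Fos* and *Fosl1* (uncertain), factors of the AP-1 family, had log2 fold changes of -1.26 and -2.11.

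Further effectors of ATF4 type moved in both directions. Of 27 tested of 30, 16 were higher, 6 lower and 5 not past the threshold, 6 were called higher and 2 called lower, and the median log2 fold change was 0.37 (0.35 with 1 gene at its bound). With the cytokines alone 4 were higher and 13 lower, 6 were called lower, and the median was -0.31. The list was written with earlier results of these data known and also holds *Soat2*, whose log2 fold change of 7.40 was its largest. A link of *Soat2* to ATF4 was not tested. *Fgf21*, *Stc2* and *Adm2* were at the floor in each library of these groups. *Sesn2*, which reports amino acid shortage to mTORC1, rose from 50.6 ± 2.88 to 91.4 ± 2.13 CPM (log2 fold change 0.85). *Ppp1r15a*, the phosphatase subunit GADD34 that ends the ISR, rose by 0.65. *Il6*, an inflammatory cytokine gene, was at 0.0976, 0.284, 0 and 0.0994 CPM in naive and 0.921, 0.882, 0.735 and 0.697 CPM in Oli_ISR macrophages. It did not overlap between the groups but stayed below 1 CPM in every library.

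Enzymes of serine, asparagine and proline synthesis rose for the most part. Of 17 tested of 18, 13 were higher, 2 lower and 2 not past the threshold, 8 were called higher, and the median log2 fold change was 1.32 (1.13 with 1 gene at its bound), with *Cbs* at the floor. With the cytokines alone 10 were already higher and none lower, 3 were called higher, and the median was 0.45. Their sums were 224, 257, 217 and 219 CPM in naive and 832, 767, 804 and 776 CPM in Oli_ISR macrophages, so that no library overlapped. *Mthfd2* (ENSMUSG00000005667, chromosome 6, 83282673 to 83302890), a mitochondrial folate enzyme, rose from 12.4, 15.1, 11.5 and 12.3 CPM to 180, 166, 173 and 179 CPM. *Aldh18a1*, the first enzyme of proline synthesis, rose from 6.94 ± 0.376 to 44.7 ± 3.63 CPM. *Psat1*, the next enzyme of the serine pathway after *Phgdh*, was at 7.59 ± 1.69 and 38.1 ± 6.92 CPM, with a log2 fold change of 2.33 that the cytokines alone also gave, at 2.36. *Shmt2*, the mitochondrial serine hydroxymethyltransferase, rose by 1.13, while its cytosolic counterpart *Shmt1* had a log2 fold change of -0.73.

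Amino acid transporters and tRNA synthetases were raised as well. Of 17 transporters 11 were higher, 3 lower and 3 not past the threshold, 7 were called higher and 1 called lower, with a median log2 fold change of 0.65. With the cytokines alone 6 were higher and 7 lower, 3 were called higher and 2 called lower, at a median of -0.15. *Slc7a2* (ENSMUSG00000031596, chromosome 8, 41315431 to 41375345), a carrier of arginine and other cationic amino acids, was at 6.78, 5, 7.99 and 5.76 CPM in naive and 514, 570, 485 and 511 CPM in Oli_ISR macrophages. Each Oli_ISR value was above the 346 ± 19.7 CPM with the cytokines alone. Another such carrier, *Slc7a1* (ENSMUSG00000041313, chromosome 5, 148264220 to 148336848), rose from 6.64, 5.63, 7.03 and 6.21 CPM to 95.6, 90.9, 99 and 80.8 CPM. *Slc7a5*, the large neutral amino acid carrier, rose from 3.96 ± 0.618 to 34.5 ± 1.75 CPM, and its partner chain *Slc3a2* (uncertain) from 241 ± 16 to 668 ± 41.3 CPM. The carrier *Slc7a7* had a log2 fold change of -1.89.

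Of 20 cytosolic aminoacyl-tRNA synthetases 19 were higher, none was lower and 7 were called higher by edgeR's quasi-likelihood test, with a median log2 fold change of 1.04. With the cytokines alone 16 were already higher and 1 lower, none was called, and the median was 0.31. The sums were 1253, 1350, 1283 and 1245 CPM in naive and 2744, 2703, 2768 and 2705 CPM in Oli_ISR macrophages. *Aars1* (ENSMUSG00000031960, chromosome 8, 111754391 to 111784296), which charges alanine tRNA, rose from 58.2, 64.5, 59.1 and 58.6 CPM to 333, 321, 324 and 337 CPM. *Cars1*, which charges cysteine tRNA, rose from 27.1 ± 2.19 to 118 ± 3.5 CPM. *Eprs1*, the joint enzyme for glutamate and proline, rose from 71.5 ± 7.29 to 264 ± 12.7 CPM.

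Chaperones of the endoplasmic reticulum (ER) and of mitochondria had smaller median changes than the tRNA synthetases. Of 21 ER chaperones and degradation genes 15 were higher, 1 lower and 5 not past the threshold, none was called, and the median log2 fold change was 0.21. With the cytokines alone 17 were higher and 1 lower, at a median of 0.47. *Hspa5*, the main ER chaperone BiP (uncertain), was at 711, 824, 830 and 751 CPM in naive and 764, 895, 820 and 839 CPM in Oli_ISR macrophages, and the groups overlapped. Of 17 mitochondrial chaperones and proteases 13 were higher and 4 not past the threshold, 2 were called higher and the median was 0.50. The cytokines alone gave 11 higher and 1 lower, at a median of 0.38. Their sums were 919, 1000, 962 and 932 CPM against 1824, 1716, 1799 and 1727 CPM, with *Hspa9* as the most abundant gene. *Hspa9* (ENSMUSG00000024359, chromosome 18, 35070465 to 35087750, uncertain), the mitochondrial HSP70, rose from 135, 143, 142 and 139 CPM to 627, 549, 613 and 565 CPM. Its cochaperone *Dnaja3* rose from 40.5 ± 1.66 to 107 ± 3.69 CPM.

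Genes of the respiratory chain split by genome. Nuclear subunits of complexes I to IV were higher in 28 of 37 and not past the threshold in 9, and subunits of ATP synthase, the target of oligomycin, were higher in 10, lower in 1 and not past the threshold in 8 of 19. Their median log2 fold changes were 0.36 and 0.26, none was called, and the cytokines alone gave 0.70 and 0.72. The subunits of complexes I to IV summed to 2398, 3222, 2424 and 2366 CPM in naive and 3554, 3281, 3459 and 3362 CPM in Oli_ISR macrophages, and those of ATP synthase to 1696, 2233, 1735 and 1684 CPM against 2737, 2514, 2704 and 2555 CPM. The naive library of mouse 2 was thus the highest of its group, and mouse 2 showed the smallest change in both sums. Genes of mitochondrial DNA (mtDNA) went the other way. All 7 tested of 13 were lower and 4 were called lower, with a median log2 fold change of -1.41, beside 0.78 with the cytokines alone. The other 6, *mt-Nd3*, *mt-Nd4l*, *mt-Co2*, *mt-Co3*, *mt-Atp6* and *mt-Atp8*, were at the floor in each library, and all of them but *mt-Atp8* share 98.9% to 100% of their 31-base words with other genes. The share of counts on mtDNA genes was 0.492%, 0.597%, 0.542% and 0.783% in naive and 0.208%, 0.201%, 0.269% and 0.198% in Oli_ISR macrophages. Each Oli_ISR library was below each naive library, with a ratio of means of 0.363 (*P* = 0.029 in an exact permutation test, two-sided, which cannot give less with 4 libraries a group). With exchanges only within a mouse, *P* was 0.125, the least that 4 pairs allow, so the paired test cannot pass the threshold. *mt-Co1*, a catalytic subunit of cytochrome oxidase (uncertain), was at 2821, 3558, 3249 and 4521 CPM and 1245, 1229, 1596 and 1237 CPM. *mt-Nd6*, encoded on the other strand of mtDNA, had a log2 fold change of -1.84 and *mt-Nd2* of -0.71.

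Glycolysis genes rose in part, with 15 of 25 higher, 6 lower, 4 not past the threshold, 3 called higher and a median log2 fold change of 0.34, close to the 0.31 with the cytokines alone. *Pfkp*, the platelet form of phosphofructokinase, rose from 67.2 ± 3.4 to 238 ± 6.51 CPM. *Slc2a1*, the glucose carrier GLUT1, rose from 29.9 ± 0.904 to 89.8 ± 10.9 CPM, and *Ldha* (uncertain), which makes lactate, was at 397, 508, 408 and 385 CPM against 1040, 978, 975 and 985 CPM. *Aldoc* had a log2 fold change of -0.95.

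**Figure D2:**
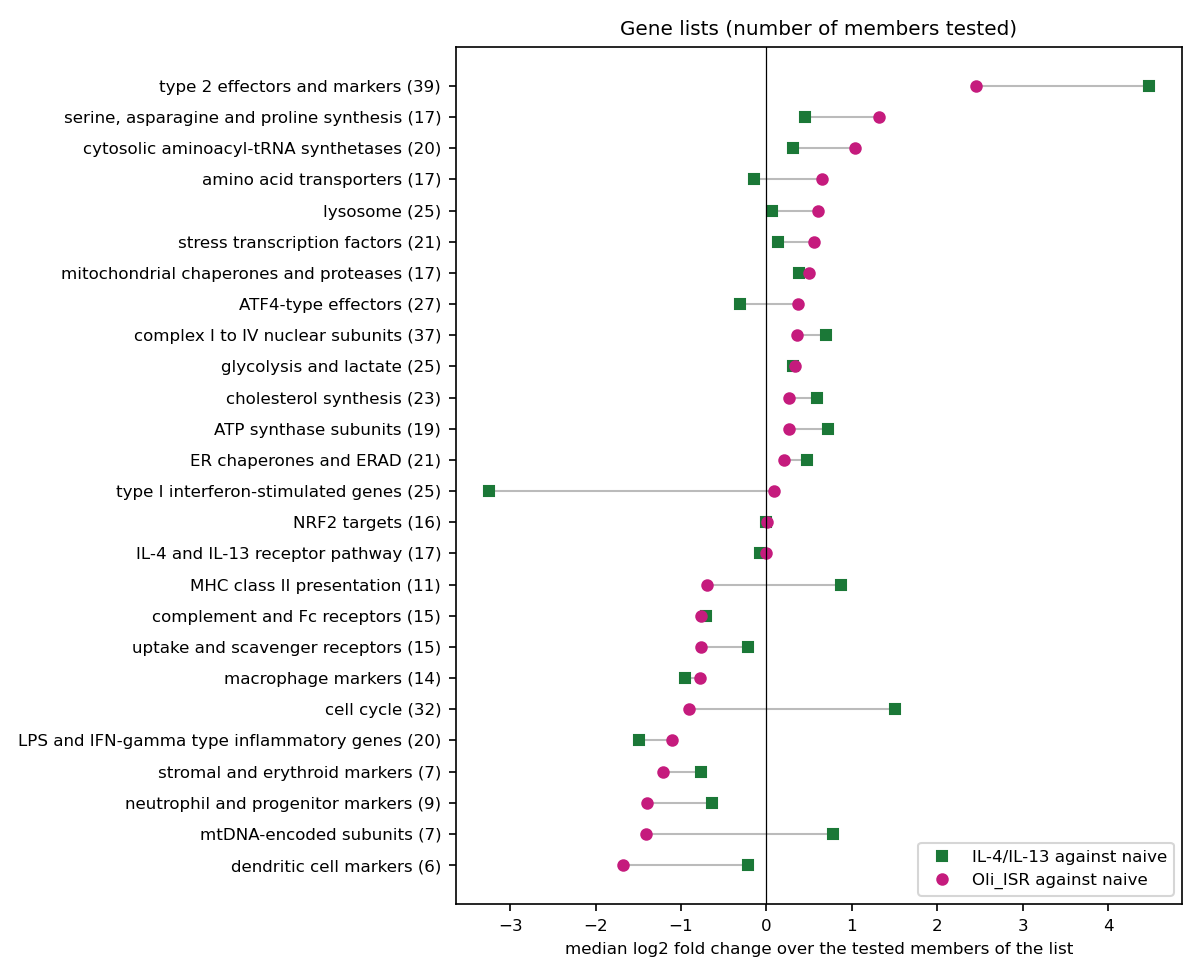
Median log2 fold change over the tested members of 26 gene lists, with the number tested in parentheses; squares are IL-4/IL-13–treated and circles Oli_ISR macrophages, each against naive, and both share the naive libraries. The type 2 list stood at 2.45 in Oli_ISR macrophages and at 4.48 with the cytokines alone, the cell cycle list at -0.90 and 1.51.

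Genes below naive were the larger part of those changed at least 2.5-fold, though not of those past the adjusted *P* alone. Of the 1008 genes called lower, 487 (48.3%) were repressed by the cytokines alone, a comparison that shares the naive libraries. Another 473 (46.9%) were not called with the cytokines alone and 48 (4.76%) were induced by them. Over all genes tested, 6.08% were repressed and 5.39% induced by the cytokines alone, the latter near the share among genes called lower. The 487 genes had a median log2 fold change of -2.29, against -2.07 with the cytokines alone. The 473 genes had a median log2 fold change of -1.70, against -0.788 with the cytokines alone. The genes called below both naive and IL-4/IL-13–treated macrophages numbered 247, with a median of -2.27, or 260 without the naive library of mouse 2. Of them 42 were repressed, 157 (63.6%) not called and 48 (19.4%) induced by the cytokines alone, and 91.5% were protein coding. These 48 are all of the induced genes called below naive, so their part in this set follows from those calls.

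*Adgre4* (ENSMUSG00000032915, chromosome 17, 56056984 to 56175274), an adhesion receptor of the F4/80 family, was at 129, 110, 144 and 123 CPM in naive and 0.108, 0.0551, 0.113 and 0.155 CPM in Oli_ISR macrophages. At most 4 counts remained in an Oli_ISR library, and the 2.94 ± 0.623 CPM with the cytokines alone lay between. The log2 fold change was -10.06 (standard error 0.20; edgeR's quasi-likelihood test, adjusted *P* = 1.4e-22). *Cx3cr1* (ENSMUSG00000052336, chromosome 9, 119877749 to 119898945), the fractalkine receptor, fell from 121, 93.8, 130 and 113 CPM to 0.217, 0.165, 0.113 and 0.194 CPM. *Gpr34* (ENSMUSG00000040229, chromosome X, 13489625 to 13507116), a lysophosphatidylserine receptor, fell from 17.3, 16.5, 16.2 and 16.5 CPM to 0.162, 0, 0.113 and 0.155 CPM. *F13a1*, the coagulation factor XIII subunit that macrophages carry, fell from 19.1 ± 2.47 to 0.212 ± 0.136 CPM. These genes also fell with the cytokines alone, by smaller amounts, with log2 fold changes of -5.42, -5.85, -3.89 and -2.89.

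*Siglece*, *Pilrb1*, *Pilrb2*, *Pilra* and *Fpr2*, all uncertain, had log2 fold changes of -6.95, -6.81, -6.80, -6.18 and -5.60. *Fpr1*, a receptor for bacterial formyl peptides, fell from 8.12 ± 1.02 to 0.089 ± 0.104 CPM, and *Cd300e*, an activating receptor of monocytes, from 39.9, 46.6, 42.2 and 51.2 CPM to 0.65, 0.606, 0.679 and 0.813 CPM. *Cd300e* was as low with the cytokines alone, at 0.678 ± 0.307 CPM. *Ighm* (ENSMUSG00000076617, chromosome 12, 113382178 to 113386350), the immunoglobulin heavy constant gene µ, was at 115, 137, 101 and 93.8 CPM in naive and 0.65, 0.771, 0.396 and 1.47 CPM in Oli_ISR macrophages, beside 16.1 ± 2.32 CPM with the cytokines.

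Some falls were far smaller with the cytokines alone. *Tmem176b* (ENSMUSG00000029810, chromosome 6, 48809099 to 48819233), a membrane protein gene linked to antigen presentation, was at 363, 491, 372 and 347 CPM in naive and 9.86, 7.66, 9.73 and 7.67 CPM in Oli_ISR macrophages. IL-4/IL-13–treated macrophages kept 185 ± 9.02 CPM. Its overlapping neighbor *Tmem176a* (ENSMUSG00000023367, chromosome 6, 48817813 to 48824005, uncertain) fell from 173, 215, 169 and 156 CPM to 5.47, 5.4, 4.64 and 4.96 CPM. The log2 fold changes were -5.50 and -5.12, against -1.09 and -0.94 with the cytokines. *Kmo*, an enzyme of tryptophan breakdown, fell from 9.09 ± 1.27 to 0.464 ± 0.247 CPM.

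Of the 48 genes induced by the cytokines and below naive in Oli_ISR macrophages, the 8 with the lowest log2 fold change were *Il18r1*, *BC035044*, *Gm35113*, *Aunip* (uncertain), *Pclaf*, *Tmem163*, *Arsi* and *Bex6*. *Il18r1*, the IL-18 receptor chain, had no count in any Oli_ISR library and 0.195, 0.0569, 0.215 and 0.0994 CPM in naive macrophages, so that no fold is given. *Gm35113*, with at most 7 counts in a naive library, was no longer past the threshold without mouse 2 (log2 fold change -2.46) or without mouse 5 (-2.73). *BC035044*, a lectin-like gene, was 14.6 times as high in naive macrophages (95% exact interval 5.97 to 46.4). *Pclaf* (ENSMUSG00000040204, chromosome 9, 65797519 to 65812346), a partner of the replication clamp, was at 6.1, 9.04, 4.67 and 4.92 CPM in naive, 30.4 ± 4.06 CPM with the cytokines and 1.25, 0.771, 1.19 and 0.697 CPM in Oli_ISR macrophages. The hemoglobin scavenger receptor *Cd163*, named after its values were seen, was at 3.44 ± 0.53, 9.14 ± 1.23 and 0.901 ± 0.306 CPM.

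Most genes of the cell cycle list were below naive, but not their sum. Of 32 tested genes 24 were lower than in naive macrophages, 3 higher and 5 not past the threshold, 6 were called lower, and the median log2 fold change was -0.90, whereas 31 were higher with the cytokines alone at a median of 1.51. *Mki67* (ENSMUSG00000031004, chromosome 7, 135291513 to 135318299), the proliferation antigen Ki-67, was at 23.5, 18.5, 23 and 26.6 CPM in naive and 10, 10.9, 12.9 and 10.9 CPM in Oli_ISR macrophages. No Oli_ISR value reached the naive range, and IL-4/IL-13–treated macrophages had 75.8 CPM. *Tk1* (ENSMUSG00000025574, chromosome 11, 117702770 to 117717042), thymidine kinase, fell from 9.47, 12.2, 7.4 and 8.89 CPM to 2.44, 1.87, 1.64 and 1.74 CPM. *Rrm2* (uncertain), a subunit of ribonucleotide reductase, was at 4.44, 1.82, 3.45 and 1.66 CPM in Oli_ISR macrophages and 9.72 ± 1.75 CPM in naive ones. *Ccna2* and *Top2a*, of S phase and mitosis, had log2 fold changes of -1.50 and -0.96. *Pcna* (uncertain), the replication clamp, was higher, at 134, 150, 129 and 146 CPM against 337, 325, 318 and 337 CPM, and was the most abundant gene of the list. The list summed to 677, 753, 640 and 704 CPM in naive and 763, 750, 711 and 745 CPM in Oli_ISR macrophages.

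Interferon-stimulated genes lay near naive levels in place of the low levels with the cytokines. Of 25 tested 6 were higher, 4 lower and 15 not past the threshold, with a median log2 fold change of 0.09. With the cytokines alone 24 were lower, 23 of them called, at a median of -3.25, and all 25 were higher in Oli_ISR than in IL-4/IL-13–treated macrophages. The median log2 fold change between the latter groups was 2.86, beside 0.00261 over all genes tested. For this comparison the share of all genes past the adjusted *P* is not given. The sums were 5147, 4753, 4435 and 4274 CPM in naive and 4307, 6863, 3092 and 6745 CPM in Oli_ISR macrophages. The Oli_ISR libraries of mice 2 and 5 were above the naive range, that of mouse 1 was in its lower part and that of mouse 4 below it. *Ifit2*, an antiviral RNA-binding protein gene, was at 402, 317, 358 and 341 CPM in naive and 296, 594, 158 and 570 CPM in Oli_ISR macrophages. *Irf7*, the regulator of interferon genes, was at 571, 580, 469 and 457 CPM against 483, 885, 318 and 920 CPM. Both groups overlapped for these genes, at log2 fold changes of 0.19 (standard error 0.32) and 0.33 (standard error 0.25), while IL-4/IL-13–treated macrophages had 12.9 ± 1.75 and 31.6 ± 5.02 CPM. *Ifit3b* (uncertain) stayed below naive, at 4.71, 11.1, 2.83 and 13.3 CPM against 58.5, 59.8, 47.6 and 46.6 CPM. A difference that misses the threshold does not show equal levels.

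Inflammatory genes typical of LPS and IFN-γ were mostly low. Of 20 tested of 21, 12 were lower, 2 higher and 6 not past the threshold, 9 were called lower and 1 called higher, with a median log2 fold change of -1.11, beside -1.49 with the cytokines alone. *Il1b* (ENSMUSG00000027398, chromosome 2, 129206490 to 129213059), the gene of IL-1β, was at 15.6, 16.9, 14.3 and 16.1 CPM in naive and 0.162, 0.496, 0.17 and 0.542 CPM in Oli_ISR macrophages. *Cxcl10*, an interferon-type chemokine gene, fell from 47.4, 43.9, 40.9 and 38.4 CPM to 1.9, 4.35, 1.13 and 3.37 CPM. *Tnf*, the tumor necrosis factor gene, was at 19.3 ± 3.28 and 8.74 ± 2.31 CPM.

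Most genes of antigen presentation by MHC class II were below naive, but their summed level was above it. Of 11 tested of 12, 7 were lower, 1 higher and 3 not past the threshold, 2 were called lower, and the median log2 fold change was -0.69, against 0.87 with the cytokines alone. The sums were 8995, 11138, 9622 and 8532 CPM in naive and 12325, 12074, 12937 and 11910 CPM in Oli_ISR macrophages, with *Ctss*, a protease, as the most abundant gene. *H2-Eb1* (ENSMUSG00000060586, chromosome 17, 34504236 to 34535648), a class II β chain, was at 457, 597, 408 and 386 CPM in naive and 219, 217, 195 and 210 CPM in Oli_ISR macrophages. IL-4/IL-13–treated macrophages had 648 ± 18.5 CPM, so that Oli_ISR macrophages were lowest of the 3 groups for this gene.

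As a whole profile, Oli_ISR macrophages lay between naive and IL-4/IL-13–treated macrophages and also away from the line that joins them. The position along that line, measured on log2 CPM of all tested genes with the line taken from the other 3 mice, was 66.7%, 53.9%, 66.2% and 54.4% of the way from naive to IL-4/IL-13. The mean was 60.3% ± 7.07 (SD, n = 4 mice). The distance off the line was 87.6, 95.1, 80.2 and 85.9 log2 units, larger in every mouse than the 74.3, 60.7, 73.9 and 61.5 units along it. It made up 62.4% ± 7.66 of the squared length, against 13.6% ± 3.88 for IL-4/IL-13–treated macrophages. Limited to genes called with the cytokines alone, the position was 59.9% and the share off the line 45.3%. With these genes, mice 1 and 4 had a smaller distance off the line (52.3 and 48.2 units) than along it (63.6 and 64.9). In mice 2 and 5 the distance off the line stayed larger, at 58.5 and 55 against 54.5 and 53 units.

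**Figure D3:**
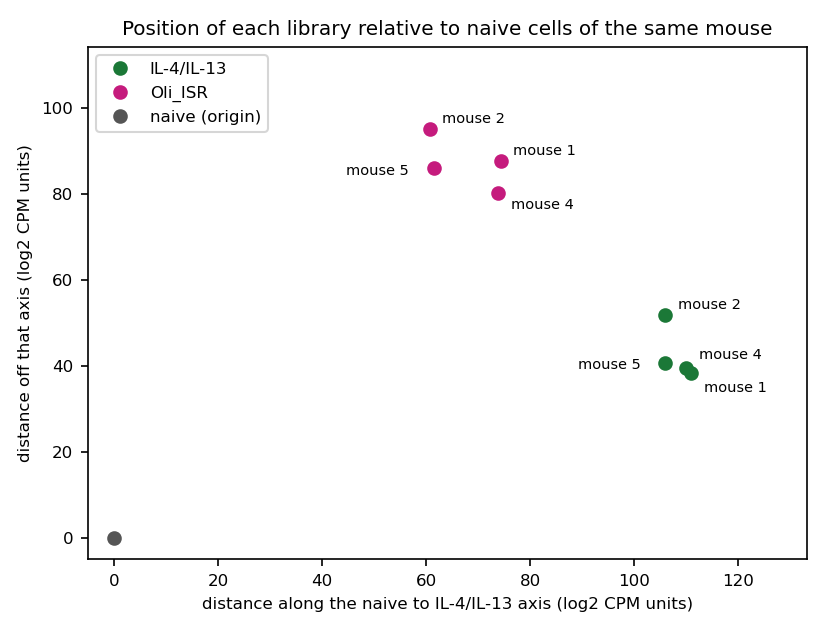
Position of each library relative to the naive library of the same mouse, in log2 CPM units, with distance along the line from naive to IL-4/IL-13–treated macrophages on the x axis and distance off it on the y axis. Oli_ISR libraries lay at 60.7 to 74.3 along and 80.2 to 95.1 off the line, IL-4/IL-13 libraries at 106 to 111 along and 38.2 to 51.8 off it.

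Promoters of the genes above both references were searched for the C/EBP-ATF element, written TGATGNAA, on both strands of the 300 bases from 250 before to 50 after the start in RefSeq's table (GRCm38.p6). Of 112 genes 72 had a promoter there, and 12 of these (16.7%) held the element. The share was 4.51% of all 27025 genes with a promoter, 2.83% of the 9950 tested ones, 5.97% of 201 induced genes still above naive and 2.81% of 178 genes below both. The STAT6-type motif TTCNNNNGAA was in 10.4% of the induced genes still above naive, 6.94% of those above both, 10.1% of those below both, 6.72% of the tested genes and 8.01% of all. Promoters of *Chac1*, *Trib3* and *Asns* are shown as examples of genes above both with the element, and those of *Pdcd1lg2* and *Itgax* as examples of kept induced genes with the other motif. Capitals mark the match, which is a description of letters and not of binding. *Chac1* is at chr2:119350992-119351291 on the plus strand, *Trib3* at chr2:152344011-152344310 on the minus strand, *Asns* at chr6:7693160-7693459 on the minus strand, *Pdcd1lg2* at chr19:29410669-29410968 and *Itgax* at chr7:128129300-128129599, both on the plus strand.
Chac1: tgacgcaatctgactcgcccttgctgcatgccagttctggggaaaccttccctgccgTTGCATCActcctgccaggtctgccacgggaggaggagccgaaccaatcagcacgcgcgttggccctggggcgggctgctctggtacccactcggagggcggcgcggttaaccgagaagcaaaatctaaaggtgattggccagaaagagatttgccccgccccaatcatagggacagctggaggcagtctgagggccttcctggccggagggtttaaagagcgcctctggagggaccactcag
Trib3: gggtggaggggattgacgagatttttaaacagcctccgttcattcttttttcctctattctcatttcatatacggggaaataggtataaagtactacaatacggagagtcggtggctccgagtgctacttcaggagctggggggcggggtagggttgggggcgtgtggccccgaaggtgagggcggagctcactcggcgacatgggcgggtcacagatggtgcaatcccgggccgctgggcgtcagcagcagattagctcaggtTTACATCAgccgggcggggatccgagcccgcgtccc
Asns: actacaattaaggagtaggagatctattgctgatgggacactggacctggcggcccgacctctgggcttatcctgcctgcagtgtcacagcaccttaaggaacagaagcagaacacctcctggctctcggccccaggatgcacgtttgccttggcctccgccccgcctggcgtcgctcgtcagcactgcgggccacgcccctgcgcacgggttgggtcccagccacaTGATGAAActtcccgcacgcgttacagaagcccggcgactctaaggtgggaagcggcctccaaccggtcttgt
Pdcd1lg2: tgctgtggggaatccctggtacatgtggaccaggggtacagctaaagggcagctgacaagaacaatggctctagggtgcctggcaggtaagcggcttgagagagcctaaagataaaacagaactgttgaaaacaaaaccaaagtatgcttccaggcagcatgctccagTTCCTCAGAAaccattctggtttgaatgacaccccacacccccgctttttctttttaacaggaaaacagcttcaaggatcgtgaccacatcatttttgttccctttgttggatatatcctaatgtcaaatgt
Itgax: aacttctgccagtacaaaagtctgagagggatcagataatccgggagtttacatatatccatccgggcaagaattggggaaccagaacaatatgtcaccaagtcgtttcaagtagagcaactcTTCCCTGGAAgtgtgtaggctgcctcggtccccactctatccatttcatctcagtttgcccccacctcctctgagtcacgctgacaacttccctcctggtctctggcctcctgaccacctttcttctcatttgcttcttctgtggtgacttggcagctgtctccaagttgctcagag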

How the data were processed

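mRNA of bone marrow–derived macrophages was sequenced in 24 libraries of 4 mice and 6 groups. Per the submitters' notes, the authors used cutadapt 1.8, STAR 2.7 (GRCm39) and HTSeq 0.9.1, and deposited raw counts per gene for 56884 identifiers, of which 56323 were found in the annotation used here. The strand setting is not given in the sources used here. The 5 totals that belong to no gene took 12.74% to 15.231% of the reads of a library and were left out. The TPM table (RSEM 1.2.31) was not used, because its header holds 28 names over 25 cells. Groups follow the library names and titles, and members and lists were chosen with earlier results of these data known.

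Counts were filtered by group (filterByExpr), normalized by TMM and fitted with edgeR 4.0.16 (with limma 3.58.1) in R 4.3.3 over all libraries, with 1 coefficient per group. The procedure was separately run on simulated data, for which no values are given here. The median biological coefficient of variation was 7.4%. Tables were handled in Python 3.11.15 with numpy 2.4.6 and pandas 2.3.3. Named genes were the 12 largest rises and 12 largest falls among called genes with the same direction in all mice and a mean of at least 50 counts, the 8 most raised above and the 8 most lowered below both references, the 8 most abundant kept induced genes, the 8 induced genes lowest against naive, and members of the 28 gene lists; some genes so selected are not reported here. Of 531 listed genes 491 were tested. Log2 CPM for the axis had a prior count of 2. Alternatives were DESeq2 1.42.0, other scalings, filters, samples and fold thresholds, a replicate block and each mouse left out. By the labels, a shared number means a shared mouse, which gives the pairing, and the deviations of naive and Oli_ISR libraries of mice 1, 2, 4 and 5 correlated at 0.162, 0, 0.17 and 0.446 across genes, which are not independent. Between different mice the correlations ran from -0.329 to 0.203.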

Additional observations from a re-analysis of the deposited data

Results flagged for a closer look

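Among 213 groups of 4 libraries, 13 (6.1%) held a library whose gap to the nearest other library took up nearly the whole range of its group, and chance gives about 1 in 20. The naive library of mouse 2 was the high one in 5 of them. It had *Retnla* at 0.398 CPM against 0 to 0.0536 CPM in the other naive libraries, *Gm8113* (uncertain) at 0.455 CPM against 0.195 to 0.215 CPM, *Aars1* at 64.5 CPM against 58.2 to 59.1 CPM, summed ATP synthase subunits at 2233 CPM against 1684 to 1735 CPM and summed nuclear subunits of complexes I to IV at 3222 CPM against 2366 to 2424 CPM. The Oli_ISR library of mouse 4 was high in *mt-Co1* (uncertain), at 1596 CPM against 1229 to 1245 CPM, in the sum of mtDNA-encoded subunits, at 2819 CPM against 2053 to 2182 CPM, and in the share of counts on mtDNA genes, at 0.269% against 0.198% to 0.208%. The Oli_ISR library of mouse 1 was low in *Pilra* (uncertain), at 0.217 CPM against 0.331 to 0.348 CPM, and high in *Aunip* (uncertain), at 0.217 CPM against 0.0387 to 0.0565 CPM. *Chac1* was at 0.488 CPM in the naive library of mouse 1 against 0.322 to 0.348 CPM in the others, and *Anxa4* at 381 CPM in that of mouse 4 against 367 to 369 CPM. The Oli_ISR library of mouse 5 was the deepest, with 26725278 counts on genes against 18514993 to 19381936.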

How the results depend on the processing

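The thresholds moved the counts most. With at least 10 counts required in every library, which leaves 11017 genes and drops genes that are absent in a group, 657 genes were called in Oli_ISR against naive macrophages, 812 in IL-4/IL-13–treated against naive and 489 in Oli_ISR against IL-4/IL-13–treated macrophages. Then 127 of 365 induced genes were still called above naive, beside 280 of 737 otherwise, 46 genes were above both and 62 below both references, and 13 of the 48 genes named by rank remained testable. With a 2-fold threshold, 2290 genes were called, 425 of 1058 induced genes were above naive, 206 genes were above both and 439 below both. With mouse as a replicate block, 1506 genes were called (490 higher, 1016 lower), 284 induced genes were above naive, 110 genes were above both and 254 below both, so that the pairing changed no count by over 1.5 times. Leaving out each mouse in turn gave 1430 to 1567 called genes, 277 to 292 induced genes above naive, 108 to 121 genes above both, 235 to 267 below both, and an axis position of 57.2% to 62%. The mtDNA ratio then ranged from 0.324 to 0.416, with an exact permutation *P* of 0.1, the smallest that 3 libraries against 3 allow. With all mice and exchanges only within a mouse, the ratio of 0.363 had a *P* of 0.125. Without any filter 2160 genes were called among 27890, and with DESeq2 1488. Of the 48 genes named by rank, where still tested, only *Gm35113* was no longer past the threshold, without mouse 2 and without mouse 5 (log2 fold changes -2.46 and -2.73), and none reversed. Of up to 393 list genes past the threshold, 0 to 40 were no longer past it in a setting, most without mouse 1, and none changed sign. Settings for the comparisons with IL-4/IL-13–treated macrophages and for the gene lists, and those without the naive library of mouse 2, and the mtDNA test within mice, were chosen after seeing the data. At this depth, genes with a few counts in a group have folds that counting error limits.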

Other observations

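Lysosomal genes were raised as a list. Of 25 tested 20 were higher than in naive macrophages, 1 lower and 4 not past the threshold of edgeR's quasi-likelihood test, 2 were called higher, and the median log2 fold change was 0.60, against 0.07 with the cytokines alone. Their summed level was 29138, 33962, 35108 and 30126 CPM in naive and 51856, 50474, 55423 and 49248 CPM in Oli_ISR macrophages of mice 1, 2, 4 and 5, with the protease *Ctsb* as the most abundant. *Gpnmb*, a glycoprotein of lysosomal stress, was at 5692, 5657, 7328 and 5952 CPM against 11581, 11427, 13164 and 11536 CPM, above naive in every mouse, while IL-4/IL-13–treated macrophages had 3708 CPM. *Ctsk*, a collagen-degrading protease, rose from 10.1 ± 2.18 to 36 ± 6.36 CPM (SD, n = 4 mice), and *Ctsz*, a carboxypeptidase (uncertain, since its exons overlap another gene), from 756 ± 120 to 2200 ± 47.8 CPM.

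Most listed genes of complement and of receptors for particles were lower. Of 15 tested genes of complement, its receptors and Fc receptors of 16, 12 were lower and 3 higher, 3 were called lower and 1 called higher, and the median log2 fold change was -0.76. *C5ar1*, the receptor for the complement peptide C5a, was at 665, 688, 731 and 647 CPM in naive and 140, 163, 132 and 159 CPM in Oli_ISR macrophages. The inhibitory Fc receptor gene *Fcgr2b* rose from 124 ± 13.1 to 408 ± 28.8 CPM. Of 15 tested uptake and scavenger receptor genes of 16, 10 were lower, 4 higher and 1 not past the threshold, 4 were called lower and 3 called higher, with a median of -0.77, while their sums overlapped, at 4178, 3879, 4706 and 4409 CPM in naive and 4189, 4432, 4463 and 4070 CPM in Oli_ISR macrophages. *Marco*, a scavenger receptor for bacteria, was at 8.2, 35.5, 8.58 and 11.2 CPM in naive and 0.65, 2.98, 1.13 and 1.7 CPM in Oli_ISR macrophages, with the highest naive value in mouse 2. *Olr1*, a receptor for oxidized lipoprotein, rose from 0.328 ± 0.0485 to 2.35 ± 0.215 CPM. Cholesterol synthesis (23 genes, 14 higher, 3 lower, 6 not past the threshold, none called) had a median of 0.26, and targets of the oxidative stress factor NRF2 (16 genes, 4 higher, 4 lower, 8 not past the threshold, 1 called in each direction) had a median of 0.01. Among the latter, *Slc7a11*, the cystine carrier, rose by a log2 fold change of 2.12, and *Osgin1* had -1.70. Beside these lists, 32.6% of all genes tested were higher and 31.2% lower, with 3.58% called higher and 7.37% called lower.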
